A study of Mus musculus with 8 samples.

Results

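The genes described here are 10 adipocyte and lipid storage genes, Retn, Adipoq, Lep, Cfd, Lpl, Fabp4, Plin1, Cidec, Adig and Cyp2e1, out of 54532 genes in the deposited count table. They were selected on measured values, with the difference between etanercept-treated and control prostates in view, so that their lower level with etanercept is part of how they were chosen and is given as a description with no test. All 10 were found by their GENCODE M21 symbols, and no other annotated gene overlapped any of them.

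Bulk RNA-seq was made from whole prostates of 8 male NOD mice, an inbred strain that develops autoimmune diabetes and inflammation of the prostate. The control group was 4 NOD mice given PBS (animals 1, 3, 65 and 69), and the etanercept group was 4 NOD mice given etanercept at 4 mg/kg (animals 17, 19, 50 and 52), a soluble TNF receptor fusion protein that blocks TNF. Both groups were injected 2 times a week for 5 weeks from 25 weeks of age and harvested at 30 weeks. Total counts ran from 13760669 to 25178942 per mouse and did not differ detectably between groups (exact two-sided permutation test, p = 0.83, n = 4 per group; the smallest p possible is 0.0286). Diabetic and non-diabetic animals were pooled in the study and the labels give no status for a mouse, so its part in any value below was not tested.

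White adipocytes store triglyceride in a single large droplet and secrete hormones and other proteins called adipokines. Fatty acids are released from circulating lipoproteins by lipoprotein lipase, carried inside the cell by binding proteins and stored in a droplet whose coat proteins control access of lipases. The prostate is embedded in fat, and most of these genes are known from adipocytes, whereas Lpl, Fabp4 and Cyp2e1 are also made by other cells.

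Together the 10 genes took a small share of each library, and the share was lower in every etanercept mouse than in every control. It was 0.0509% of counts in control 1 (95% Wilson interval 0.050 to 0.0518), 0.103% in control 3 (0.102 to 0.105), 0.0105% in control 65 (0.0100 to 0.0111) and 0.0160% in control 69 (0.0155 to 0.0166). It was 0.00299% in etanercept 17 (0.00275 to 0.00326), 0.00599% in etanercept 19 (0.00565 to 0.00634), 0.00435% in etanercept 50 (0.00405 to 0.00467) and 0.00556% in etanercept 52 (0.00519 to 0.00596). Control 3 stood highest and control 65 lowest among the controls, which differed among themselves far more than the etanercept mice did. The intervals cover counting error only. The group means were 0.0452% ± 0.0427 (SD, n = 4) in controls and 0.00472% ± 0.00134 (SD, n = 4) with etanercept. In bulk tissue, fewer adipocytes and less RNA per adipocyte cannot be told apart.

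**Figure D1:**
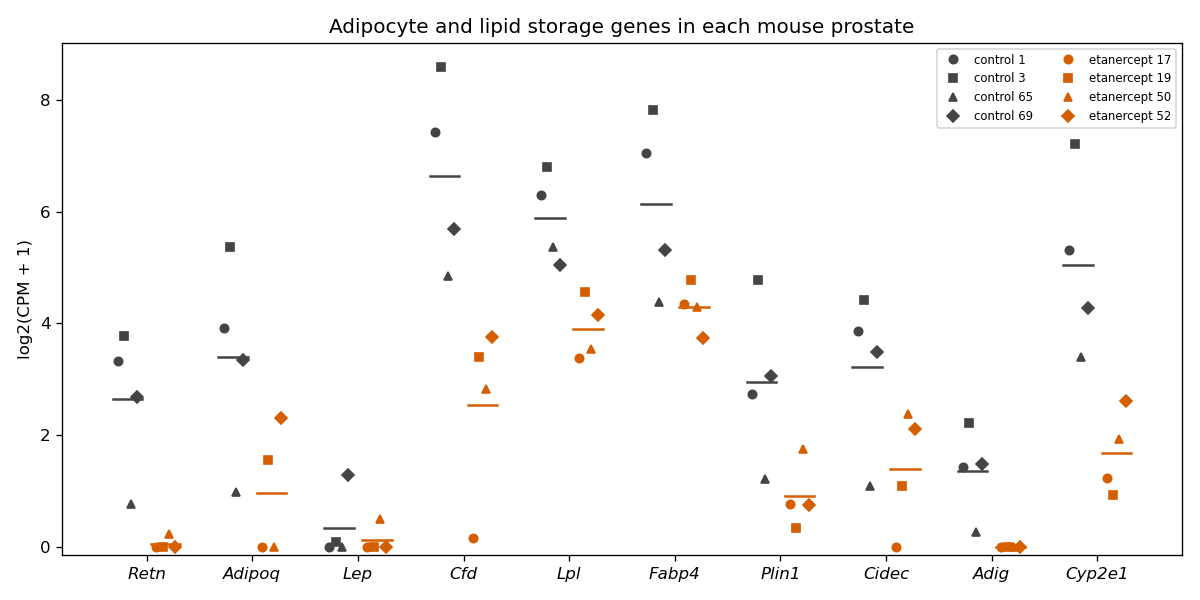
Level of each of the 10 genes in each prostate, as log2(CPM + 1) with CPM after TMM scaling; each symbol is a mouse, grey for the 4 controls and orange for the 4 etanercept mice, and bars are group means of the plotted values. Control 3 is highest for 9 of the 10 genes, and the groups do not overlap for Retn, Cfd, Lpl, Adig and Cyp2e1.

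Levels below are CPM, a gene's counts scaled to a common library total, after TMM scaling, and log2 fold changes are etanercept against control from edgeR, so that a negative value is a lower level with etanercept. The adipokines come first. Cfd encodes adipsin, the complement factor D protease that adipocytes secrete, and lies at chr10:79890853-79892655 (GRCm38). Cfd was at 170, 383, 27.8 and 50.4 CPM in controls 1, 3, 65 and 69, and at 0.116, 9.56, 6.09 and 12.5 CPM in etanercept 17, 19, 50 and 52. The lowest control lay above the highest etanercept mouse, and etanercept 17 held 2 counts of Cfd in all. The mean was 158 ± 163 CPM (SD, n = 4) in controls against 7.07 ± 5.33 (SD, n = 4), a log2 fold change of -4.48 (SE 1.12).

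Adipoq encodes adiponectin, an adipokine made almost solely by adipocytes, at chr16:23146536-23158028. It was at 14.1, 40.1, 0.984 and 9.13 CPM in controls 1, 3, 65 and 69, and at 0, 1.92, 0 and 3.94 CPM in etanercept 17, 19, 50 and 52. Control 65 fell below etanercept 19 and 52, so the groups overlapped, and 2 etanercept mice had no count. The mean was 16.1 ± 16.9 CPM (SD, n = 4) in controls and 1.47 ± 1.88 (SD, n = 4) with etanercept, a log2 fold change of -3.46 (SE 1.44).

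Retn, which encodes resistin, a hormone of mouse adipocytes, lies at chr8:3655770-3660110. Its levels were 8.99, 12.7, 0.703 and 5.43 CPM in controls 1, 3, 65 and 69, and 0, 0, 0.179 and 0 CPM in etanercept 17, 19, 50 and 52. All 3 counts of the etanercept group came from etanercept 50, against 544 counts in the controls, and the groups did not overlap. The pooled level was 164 times higher in controls, with a 95% exact counting interval of 55.8 to 798 that leaves out the spread between mice.

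Lep encodes leptin, the satiety hormone, at chr6:29060220-29073877. It was near the limit of detection, at 0, 0.0666, 0 and 1.44 CPM in controls 1, 3, 65 and 69, and at 0, 0, 0.418 and 0 CPM in etanercept 17, 19, 50 and 52. Of 26 control counts 25 came from control 69, and all 7 etanercept counts came from etanercept 50, so Lep did not follow the other adipokines across mice. Lep failed the filter on low counts.

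The genes of lipid uptake and carriage were read in every etanercept mouse. Lpl encodes lipoprotein lipase, made by adipocytes, muscle and macrophages, at chr8:68880491-68907448. Lpl was at 77.7, 111, 40.4 and 31.8 CPM in controls 1, 3, 65 and 69, and at 9.36, 22.6, 10.6 and 16.8 CPM in etanercept 17, 19, 50 and 52. The groups did not overlap, and the controls spanned only 3.48-fold, the narrowest span of the members for which a ratio could be formed. The mean was 65.2 ± 36.4 CPM (SD, n = 4) against 14.9 ± 6.12 (SD, n = 4), a log2 fold change of -2.13 (SE 0.44).

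Fabp4 encodes the fatty acid binding protein of adipocytes, which macrophages and capillary endothelium also make, at chr3:10204088-10208576. It was at 132, 226, 19.8 and 38.8 CPM in controls 1, 3, 65 and 69, and at 19.4, 26.5, 18.6 and 12.4 CPM in etanercept 17, 19, 50 and 52. Control 65 lay within the etanercept range, so the groups overlapped. The mean was 104 ± 94.7 CPM (SD, n = 4) against 19.2 ± 5.79 (SD, n = 4), a log2 fold change of -2.43 (SE 0.67).

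Among droplet coat genes, Plin1 encodes perilipin 1, which guards the droplet from lipases, at chr7:79720218-79732903. Plin1 was at 5.63, 26.2, 1.34 and 7.28 CPM in controls 1, 3, 65 and 69, and at 0.698, 0.267, 2.39 and 0.692 CPM in etanercept 17, 19, 50 and 52. Etanercept 50 exceeded control 65, and the log2 fold change was -3.31 (SE 0.96).

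Cidec, whose product promotes fusion of droplets, lies at chr6:113424634-113435760. It was at 13.6, 20.3, 1.13 and 10.2 CPM in controls 1, 3, 65 and 69, and at 0, 1.12, 4.18 and 3.32 CPM in etanercept 17, 19, 50 and 52. Control 65 was level with etanercept 19 and below etanercept 50 and 52, and the log2 fold change was -2.39 (SE 1.11).

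Adig encodes adipogenin, a small adipocyte membrane protein, at chr2:158502612-158508198. It was at 1.70, 3.66, 0.211 and 1.79 CPM in controls 1, 3, 65 and 69 and had 0 counts in every etanercept mouse. The controls held 136 counts, and against a floor of 3 counts over the etanercept group Adig was at least 41.0-fold lower with etanercept. Adig also failed the filter.

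Cyp2e1 encodes a cytochrome P450 that oxidises ethanol, ketones and fatty acids, best known from liver and also made in fat, at chr7:140763739-140774987. It was at 38.8, 147, 9.56 and 18.4 CPM in controls 1, 3, 65 and 69, and at 1.34, 0.908, 2.80 and 5.12 CPM in etanercept 17, 19, 50 and 52. The groups did not overlap, with control 65 the lowest control. The mean was 53.4 ± 63.3 CPM (SD, n = 4) against 2.54 ± 1.90 (SD, n = 4), a log2 fold change of -4.40 (SE 0.93).

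No gene was called by edgeR at an adjusted p of at most 0.05 among 15472 tested, 0% of them, and 0 of the 8 members that passed the filter were called. The smallest adjusted p of any gene in edgeR's quasi-likelihood test was 0.739. Before adjustment, p was 0.05 or less for 561 genes lower with etanercept (3.63%) and 463 higher (2.99%) in edgeR, and 7 of the 8 members were among the lower ones. DESeq2 called 21 genes, 15 of them lower with etanercept (0.0804% of 18664), and those 15 included 5 members, Retn, Lpl, Fabp4, Adig and Cyp2e1. Groups that did not overlap were found for 392 tested genes in the lower direction (2.53%) and 373 in the higher (2.41%), and for 4 of the 8 members that passed the filter, with Adig besides. Because the members were chosen on this contrast, nothing is read from these counts.

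Omitting a mouse changed how many genes DESeq2 called, from 9 to 253, and 253 was reached only without control 69. Without control 3 it called 10 genes, of which 2 were members, Retn and Cyp2e1. These refits were chosen after seeing the data.

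Control 3 set much of the size of the differences. It was the highest mouse for 9 of the 10 genes, and control 65 the lowest control for 8. Control 1 was also above controls 65 and 69 in the summed share, at 0.0509% against 0.0105% and 0.0160%. The same held for Cfd and Fabp4, whereas Plin1 and Adig were lower in control 1 than in control 69. What sets controls 1 and 3 apart was not tested. Without control 3, the control mean of Cfd was 82.8 ± 76.5 CPM (SD, n = 3) and 11.7 times the etanercept mean, where it was 22.3 times with all 4 controls. Without control 3, Cyp2e1 averaged 22.3 ± 15.0 CPM (SD, n = 3), 8.76 times the etanercept mean in place of 21 times. Without control 3, Adipoq went from 10.96 times to 5.50 times, Plin1 from 10.01 to 4.70, Fabp4 from 5.41 to 3.30, Cidec from 5.24 to 3.85, Lpl from 4.39 to 3.36 and Lep, highest in control 69, from 3.62 to 4.61; Retn and Adig have no such ratio here. The median log2 fold change of the 8 members that passed the filter was -3.39 with all mice and -2.35 without control 3, beside -0.0099 over all tested genes. With all 10 members by pooled counts and Adig at its bound, chosen after seeing the data, the median was -3.36.

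Per length of transcript, as CPM per kilobase of exon (FPKM), Cfd had the highest mean in controls, at 171 ± 176 (SD, n = 4). Cyp2e1 at 24.7 ± 29.4 FPKM, Fabp4 at 23.2 ± 21.1 and Adipoq at 11.6 ± 12.2 followed (SD, n = 4). Within each control mouse Cyp2e1 and Fabp4 were both above Adipoq. The ratio to Adipoq in controls 1, 3, 65 and 69 was 1.77, 2.34, 6.22 and 1.29 for Cyp2e1. For Fabp4 it was 2.88, 1.73, 6.20 and 1.31, so the order of Cyp2e1 and Fabp4 changed between mice. Lpl, Cidec, Retn, Adig and Plin1 lay between 2.18 and 6.22 FPKM, and Lep was lowest at 0.113. In etanercept mice Cfd was again highest at 7.67 ± 5.78 FPKM (SD, n = 4), followed by Fabp4 at 4.28 ± 1.29 and Lpl at 1.42 ± 0.584.

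The controls also differed in the proportions of the members. Relative to Adipoq in FPKM, Cfd was at 18.1, 14.3, 42.4 and 8.28 in controls 1, 3, 65 and 69. Lpl relative to Adipoq was at 0.727, 0.365, 5.40 and 0.460 in the same mice. Retn relative to Adipoq was at 0.558, 0.277, 0.625 and 0.520. Control 65, which had only 14 counts of Adipoq, was the highest control in this ratio for all 8 other members with counts in it. In CPM it was the lowest control for Adipoq and for each of these members except Lpl, which was lowest in control 69.

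After the mean of each group was subtracted, the members still varied together over the 8 mice taken as a whole. Over the 28 pairs of the 8 members that passed the filter the median Pearson r of log2(CPM + 1) was 0.77, from 0.37 to 0.89, with n = 8 mice. Cyp2e1 had r = 0.89 and rho = 0.86 with the mean of the other members, and Plin1 had r = 0.78 and rho = 0.33. These r and rho are descriptions over 8 libraries that share a treatment group each, and they were not taken in each group alone. In the etanercept mice the order of mice differed between members. Cyp2e1 was highest in etanercept 52 (5.12 CPM) and lowest in etanercept 19 (0.908 CPM). Cfd and Adipoq were also highest in etanercept 52. Fabp4 was highest in etanercept 19 (26.5 CPM) and lowest in etanercept 52 (12.4 CPM).

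Outside the members the gene most like them was Car3, carbonic anhydrase 3, an abundant enzyme of adipocytes and muscle (r = 0.98, rho = 0.98, n = 8). Car3 was at 127, 415, 13.7 and 60.2 CPM in controls 1, 3, 65 and 69, and at 2.27, 11.4, 13.8 and 15.1 CPM in etanercept 17, 19, 50 and 52. Its log2 fold change was -3.85 (SE 0.97), with an adjusted p of 0.739 in edgeR. Penk, Fmo1, Gramd4, Naf1, Col5a2, Serpina3h, Tmem38a, Gm43848 and Tmem106a came next, with r from 0.95 to 0.98. Most like Cyp2e1 were Scn4b, Exo5, Crispld2, Cldn15 and Scarf1, with r from 0.96 to 0.98. The choice of mice changed the 10 genes most like the members: with a mouse left out, between 0 and 8 of the 10 were named again, and 0 without control 65. The genes most like Cyp2e1 were not tried in this way.

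The members were chosen on this contrast, so that their distance from other lipid genes is part of that choice and nothing is read from it. Car3 (-3.85), Aqp7 (-2.99) and Pck1 (-2.79) had log2 fold changes within the range of the members. No other tested lipid gene outside the members had one as low as -2.39, that of Cidec. The member nearest 0 was Lpl at -2.13, and the lowest value in the list of cytochrome P450 and oxidoreductase partners, -2.30, lay below it. Of 161 lipid genes outside the members in 12 lists, 140 were tested and 0 were called by edgeR or DESeq2. With p of 0.05 or less before adjustment in edgeR, 13 were lower (9.29%) and 3 higher (2.14%). Over all tested genes these shares were 3.63% and 2.99%. Of the 140, 73 had a negative log2 fold change, and the median was -0.017. Groups did not overlap in the lower direction for 7 of the 140 (5.0%), Aqp7, Socs3, Angptl4, Pdgfrb, Cebpb, Cyp2f2 and Cyp4b1. In the higher direction they did not overlap for 2, Tlr4 and Ehhadh. Over all tested genes the shares were 2.53% lower and 2.41% higher.

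**Figure D2:**
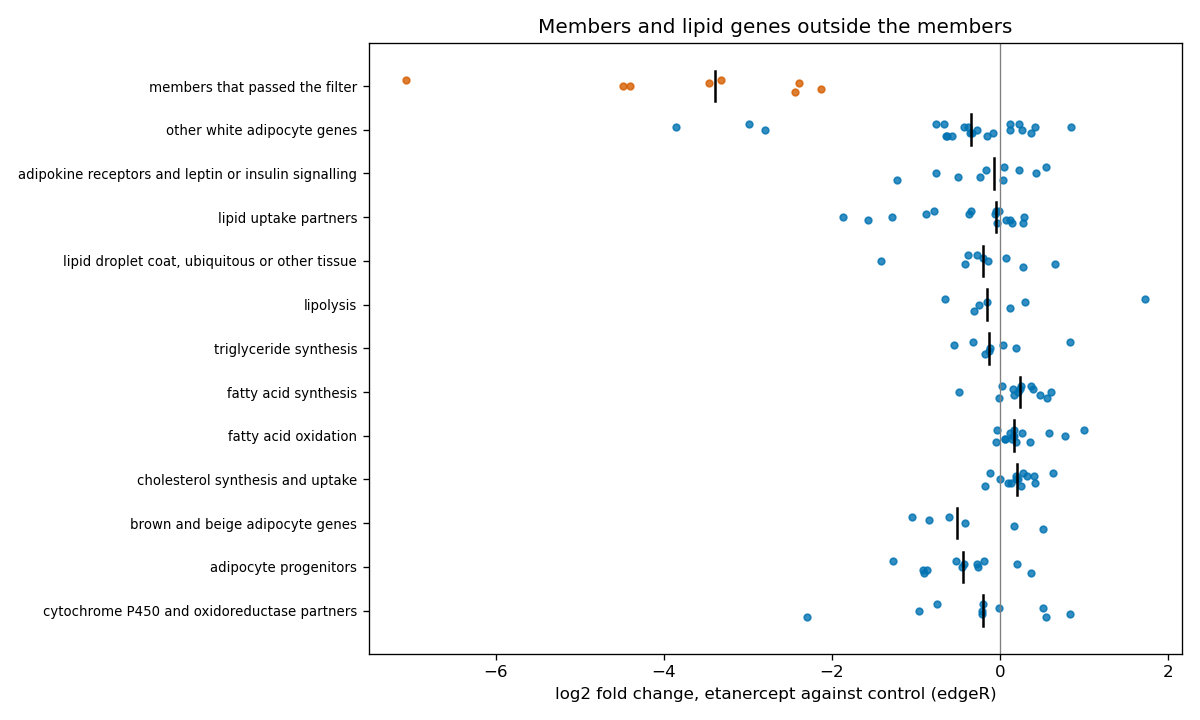
Log2 fold change of each tested gene, etanercept against control, for the 8 members that passed the filter (orange) and for 12 lists of other lipid genes (blue); black bars are medians. The members, which were chosen on this contrast, lie between -7.07 and -2.13, and list medians lie between -0.51 and 0.23.

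Among 22 tested other white adipocyte genes, 15 had a negative log2 fold change and the median was -0.35. Aqp7, the glycerol channel of adipocytes, was at 2.92, 6.79, 1.34 and 2.83 CPM in controls 1, 3, 65 and 69, and its log2 fold change was -2.99 (SE 1.06). Pparg, the master regulator of adipocyte differentiation, was at 1.48, 7.12, 0.633 and 2.66 CPM in those controls and at 3.02, 1.28, 1.43 and 1.25 CPM in etanercept 17, 19, 50 and 52; it was looked at after its values were seen. Pde3b, a phosphodiesterase, was the only gene of this list higher with etanercept at p of 0.05 or less before adjustment, with a log2 fold change of 0.85 (SE 0.31, adjusted p = 0.739 in edgeR). Slc2a4, the insulin-responsive glucose transporter, had 0.42 (SE 0.27).

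Fatty acid synthesis genes had a median of 0.23 over 13 tested genes. Scd2, a stearoyl-CoA desaturase, was at 748, 806, 722 and 2651 CPM in controls 1, 3, 65 and 69, and at 627, 2363, 1909 and 1553 CPM in etanercept 17, 19, 50 and 52. Its high mice were control 69 and etanercept 19, 50 and 52. Fatty acid oxidation genes had a median of 0.17 over 15 tested genes and cholesterol genes 0.20 over 14. For lipolysis, Lipe, the hormone-sensitive lipase, had a log2 fold change of -0.66 (SE 0.22, adjusted p = 0.739 in edgeR), and Pnpla2, the first lipase of triglyceride breakdown, -0.15 (SE 0.15).

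Of 12 adipocyte progenitor genes, 10 had a negative log2 fold change, with a median of -0.44. Cebpb, a transcription factor of early adipogenesis and of inflammation, was at 47.5, 34.9, 27.8 and 28.4 CPM in controls 1, 3, 65 and 69, and at 19.5, 19.97, 15.9 and 18.7 CPM in etanercept 17, 19, 50 and 52. The groups did not overlap, and its log2 fold change was -0.90 (SE 0.21, adjusted p = 0.739 in edgeR). Of 12 brown and beige fat genes 9 were detected and 6 tested, with a sum between 9.14 and 27.4 CPM per mouse, while Ucp1, Elovl3 and Zic1 had 0 counts in all 8 mice.

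Marker lists of cell types were read beside the members. All 10 white adipocyte markers were detected, 7 of them members, and their summed level was 252, 544, 81.2 and 124 CPM in controls 1, 3, 65 and 69, and 40.8, 40.2, 36.3 and 46.3 CPM in etanercept 17, 19, 50 and 52. Cfd was the most abundant over all mice by mean FPKM, at 89.5 against 5.67 for Lipe, which is not a member. In CPM, which is not corrected for transcript length, Lipe led in control 65 and in every etanercept mouse. It was at 36.2, 23.1, 20.1 and 24.0 CPM in etanercept 17, 19, 50 and 52. Of the 8 tested markers 5 are members, selected for being lower; the other 3, Pparg, Lipe and Acvr1c, had log2 fold changes of -0.76, -0.66 and -0.36. Hepatocyte markers summed to at most 4.06 CPM in any mouse, Apoa2, Fga, Serpina1c and Ahsg had 0 counts throughout, and Serpina1a was the most abundant. The sum was 0.505, 4.06, 2.46 and 3.0 CPM in controls 1, 3, 65 and 69, and 3.55, 0.107, 0.597 and 3.46 CPM in etanercept 17, 19, 50 and 52. The hepatocyte sum was highest in control 3, as Cyp2e1 was. In control 1, second for Cyp2e1, it was lower than in etanercept 17, 50 and 52. The part of hepatocytes in the level of Cyp2e1 was not tested.

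Control 3 was also high for other cell types. Its summed macrophage markers, 9 of 9 detected and led by Lyz2, were at 1517 CPM against 473, 770 and 527 in controls 1, 65 and 69, and at 513, 513, 414 and 561 CPM in etanercept 17, 19, 50 and 52. Its endothelial markers, 9 of 9 detected and led by Cldn5, were at 216 CPM against 124, 102 and 96.8 in controls 1, 65 and 69, and at 88.3, 83.9, 97.9 and 113 CPM in etanercept 17, 19, 50 and 52. Its skeletal muscle markers, 11 of 11 detected and led by Acta1, summed to 2211 CPM against 92.7, 213 and 524 in controls 1, 65 and 69, and to between 719 and 1332 CPM with etanercept; 7 of the 8 tested had a negative log2 fold change, with a median of -2.59 over the 8, from -4.98 for Tnnt3 to 1.10 for Acta1. Those 7 were highest in control 3, and -2.59 was the lowest median of any marker list that holds no member. The part of these cell types in the members' levels was not tested.

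Among marker lists that hold no member and have at least 5 tested genes, all those of the macrophage list (9 of 9, median log2 fold change -0.79), the endothelial list (9 of 9, -0.53), the T cell list (8 of 8, -0.98) and the basal epithelial list (5 of 5, -0.61) had a negative log2 fold change. T cell markers, led by Trac, summed to 120, 179, 110 and 72.4 CPM in controls 1, 3, 65 and 69 and to 74.8, 52.7, 78.2 and 58.5 CPM in etanercept 17, 19, 50 and 52. Basal epithelial markers, led by Krt15, summed to 471, 370, 345 and 219 CPM in the same controls and to 293, 216, 193 and 305 CPM in the same etanercept mice. All 8 smooth muscle markers, led by Acta2, had a positive log2 fold change, and their sum was 3468, 7235, 7226 and 6305 CPM in controls 1, 3, 65 and 69 and between 6621 and 14059 CPM with etanercept. None of these genes was called by edgeR or DESeq2. Mitochondrial genes took 2.43% ± 0.651 of counts (SD, n = 4) in controls and 3.33% ± 0.569 (SD, n = 4) with etanercept (exact two-sided permutation test, p = 0.0571). Their part in the members' values was not tested.

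Seminal vesicle markers, led by Svs2, summed to 87705 CPM in etanercept 17 and 3560 in control 69, against at most 601 CPM in any other mouse. The 6 markers were all detected. Leaving out control 3 and etanercept 17 together, chosen after seeing the data, gave a median log2 fold change of -2.07 for the 8 members, with 0 genes called by edgeR and 10 by DESeq2. The part of these markers in the members' levels was not tested.

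Promoter windows from RefSeq (GRCm38.p6), 250 bases before to 50 after the start, were found for 8 of the 10 members, and for none of Lpl and Fabp4. They are shown as a description only. That these genes, Lep apart, were lower together is part of how they were chosen, and any part of the promoters in it was not tested. Both strands were searched for TTGCNNAA, a core bound by C/EBP factors, of which TTGCGCAA is a special case, for AGGTCA, the core read by many nuclear receptors, and for TATAAA, the TATA box. TTGCNNAA was in windows of 3 members, Lep, Plin1 and Cidec, and in 10.8% of 32851 windows. Cidec alone had 2 windows, and the match was only in chr6:113434715-113435014, not in the window at the annotated start. TTGCGCAA was in Lep and in 0.183% of windows. AGGTCA was in Adig and in 16.3%, TATAAA in Cyp2e1 and in 13.6%, and a direct repeat of AGGTCA with 1 base between was in none of the members and in 0.0396%. A match is only these letters in this window.

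Capitals mark the matches in the following windows, each written 5′ to 3′ on the gene's strand: Lep at chr6:29059971-29060270 (plus strand), Plin1 at chr7:79732727-79733026 (minus strand), Adig at chr2:158502362-158502661 (plus strand) and Cyp2e1 at chr7:140763569-140763868 (plus strand), with Retn at chr8:3655520-3655819 (plus strand) and Adipoq at chr16:23146286-23146585 (plus strand) holding none.
Lep: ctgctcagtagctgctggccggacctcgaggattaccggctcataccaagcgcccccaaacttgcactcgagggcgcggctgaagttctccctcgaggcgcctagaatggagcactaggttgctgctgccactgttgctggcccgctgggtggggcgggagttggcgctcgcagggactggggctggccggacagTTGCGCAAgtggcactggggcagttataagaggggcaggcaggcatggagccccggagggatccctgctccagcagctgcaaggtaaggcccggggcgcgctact
Plin1: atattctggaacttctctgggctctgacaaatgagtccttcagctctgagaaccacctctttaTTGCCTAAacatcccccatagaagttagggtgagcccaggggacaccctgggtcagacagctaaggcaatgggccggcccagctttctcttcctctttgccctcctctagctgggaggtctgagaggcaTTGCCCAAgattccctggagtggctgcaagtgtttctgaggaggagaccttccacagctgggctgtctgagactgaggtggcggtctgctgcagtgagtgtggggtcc
Adig: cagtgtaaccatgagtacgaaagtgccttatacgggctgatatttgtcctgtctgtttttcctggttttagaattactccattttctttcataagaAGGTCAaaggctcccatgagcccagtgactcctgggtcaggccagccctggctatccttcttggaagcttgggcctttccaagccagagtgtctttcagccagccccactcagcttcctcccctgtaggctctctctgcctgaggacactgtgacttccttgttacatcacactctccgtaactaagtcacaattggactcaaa
Cyp2e1: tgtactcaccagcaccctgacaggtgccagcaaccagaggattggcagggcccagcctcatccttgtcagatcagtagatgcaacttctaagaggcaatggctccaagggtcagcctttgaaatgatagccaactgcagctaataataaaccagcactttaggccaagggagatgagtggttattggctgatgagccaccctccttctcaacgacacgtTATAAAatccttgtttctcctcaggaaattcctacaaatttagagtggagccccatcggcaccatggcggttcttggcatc
Retn: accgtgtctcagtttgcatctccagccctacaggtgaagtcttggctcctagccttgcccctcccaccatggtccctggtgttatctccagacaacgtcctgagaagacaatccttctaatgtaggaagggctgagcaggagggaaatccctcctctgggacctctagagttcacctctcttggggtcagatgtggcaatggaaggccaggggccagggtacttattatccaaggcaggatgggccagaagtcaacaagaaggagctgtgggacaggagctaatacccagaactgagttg
Adipoq: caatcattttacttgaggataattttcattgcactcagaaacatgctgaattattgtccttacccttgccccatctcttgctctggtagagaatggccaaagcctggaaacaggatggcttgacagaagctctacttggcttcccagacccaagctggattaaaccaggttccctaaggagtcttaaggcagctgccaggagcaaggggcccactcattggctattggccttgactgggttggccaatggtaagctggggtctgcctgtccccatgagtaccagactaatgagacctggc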

How the data were processed

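The deposited table held whole-number counts per Ensembl gene that the authors made from paired 150-nt poly(A) reads; the submitters' processing notes name fastp, STAR 2.6.1d, featureCounts 1.5.0-p3 and the build mm10. The strand setting and annotation release are not given in the sources used here. Of 54532 identifiers, 37 had no GENCODE M21 match (0.0043% of counts). Genes passing filterByExpr (minimum count 10) were scaled by TMM and tested with the quasi-likelihood test of edgeR 4.0.16 in R 4.3.3, two-sided, with Benjamini-Hochberg adjustment over 15472 genes and a threshold of 0.05; DESeq2 1.42.0 was an alternative. Scripts were tested on simulated data. Intervals and floors (3 counts) cover counting error only.

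The members and lists were chosen with earlier results of these data known. Named are the members; in each lipid list the genes called, up to 3 per direction with the smallest p and up to 3 with the highest mean FPKM; the 10 genes most like the members and 5 most like Cyp2e1 by Pearson r of log2(CPM + 1) with group means subtracted, at a mean of at least 1 CPM; and in each marker list the most abundant gene and genes at 0. FPKM uses the union of exons in GENCODE M21. Alternatives were other scalings, filters and tools, an animal number term, a length trend removed and each mouse left out.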

Additional observations from a re-analysis of the deposited data

Results flagged for a closer look

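In 256 groups of 4 mice that were checked, 18 held a mouse whose distance from its nearest neighbour took up most of the range of the group; chance alone gives about 1 in 20 groups, and genes of the same mouse are not independent. Among the members, Retn was at 0.179 CPM in etanercept 50 against 0 in the others, and Lep was at 1.44 CPM in control 69 and at 0.418 CPM in etanercept 50.

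Control 3 stood apart from the other controls for Cd36 at 119 CPM, Pde3b at 32.3 CPM, Cap1 at 269 CPM, Cox8b at 5.52 CPM and Scarf1 at 4.86 CPM, and its B cell markers summed to 365 CPM. Control 69 stood apart for Scd2 at 2651 CPM, for Klf15 at 61.9 CPM and for seminal vesicle markers at 3560 CPM in sum.

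Etanercept 17 stood apart from the other etanercept mice for seminal vesicle markers at 87705 CPM in sum, Ces1d at 105 CPM and Prdm16 at 6.92 CPM. Etanercept 52 was far from its group for Serpina3h at 7.95 CPM and Tmem26 at 4.08 CPM, and etanercept 50 for Pck1 at 3.22 CPM. What sets these mice apart was not tested.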

How the results depend on the processing

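Under 20 other edgeR settings 0 genes were called, as with the settings of the report, while DESeq2 called 21 genes with all mice, between 9 and 253 with a mouse left out and 10 without control 3 and etanercept 17; the leave-one-out and paired omissions in DESeq2, the unadjusted threshold and the order of scaling and filter were chosen after seeing the data. Its counts were 23, 10, 12 and 253 without controls 1, 3, 65 and 69, and 15, 11, 18 and 9 without etanercept 17, 19, 50 and 52. The cause was not tested. At an unadjusted p of at most 0.05 edgeR gave 1024 genes, by construction of a looser threshold. No lipid gene outside the members was called under any setting tried for that count. The median log2 fold change of the members lay between -4.63 and -2.07 over 22 alternatives, with -2.35 and -4.63 the extremes when a mouse was left out; the number of members in it changed with the filter. No member that passed the filter changed sign. Retn moved most, from -7.07 to -9.96 without etanercept 50, which held its only counts in the etanercept group. Under every scaling tried, 5 members had groups that did not overlap. With TMM, 4 of the 8 members that passed the filter were among them, beside 2.53% of all tested genes in the lower direction. The members were chosen on this contrast, so nothing is read from this count. The genes most like the members were the least stable: 5 of 10 were shared with log2(CPM + 0.1) and 1 of 10 when group means were not subtracted. Few counts limit Lep, Adig and Retn in the etanercept mice, where a level under the floor of 3 counts was not detectable. No paired analysis was possible because the groups share no animal numbers.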

Other observations

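Limits apply to all of the values above. With 4 mice in each group and controls that spanned more than 10-fold for most members, the size of each difference rests on few animals. Groups differed in treatment, and the labels carry no batch, diabetic status or body weight, so none of these was tested. The amount of fat in each sample was not measured. Members were chosen on the contrast described, so the same differences would need other animals to be tested.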
